A study of Mus musculus with 4 samples.

Results

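Cells keep reactive oxygen in check with a set of enzymes that make glutathione, reduce peroxides and dismute superoxide, many of them under the transcription factor NRF2. The mRNA levels of 31 such genes were followed in LPS-treated mouse BV-2 cells with and without SIX2 knockdown. The genes were listed by name for their role, with earlier results of these data known, and all 31 were found among 24473 genes with an FPKM value (a level scaled to gene length and library total) in the authors' expression table. BV-2 cells are mouse microglia, the resident macrophages of the brain, kept growing in culture by immortalisation. The 2 control libraries (titles sh c1 and sh c2, genotype WT) and the 2 knockdown libraries (sh s1 and sh s2, genotype SIX2 knockdown) all came from cells given lipopolysaccharide at 100 ng/mL for 24 h, so no library shows these genes without LPS. The labels do not say which hairpin or vector was used, whether the lines were clones or pools, or whether the WT cells carried a control hairpin as their sh title would have it. Nor is it said if the 2 libraries of a group came from separate cultures; if they did not, the p-values rest on technical spread.

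NRF2 (gene Nfe2l2) is held in the cytoplasm and marked for degradation by KEAP1, a sensor whose cysteines react with oxidants and electrophiles. When KEAP1 is modified, NRF2 enters the nucleus, pairs with a small MAF protein and binds the antioxidant response element, from which it drives genes for glutathione synthesis, thioredoxin, haem breakdown, quinone reduction and NADPH supply. Peroxiredoxins, glutathione peroxidases and catalase remove peroxides, and the superoxide dismutases remove superoxide, which activated microglia make in bulk. Sod2, the mitochondrial dismutase, is also a well known target of inflammatory signalling in macrophages.

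Of the 31 genes, Me1 rose and Sod2 fell in the knockdown libraries, and the other 28 that could be tested did not pass. Me1, the cytosolic malic enzyme that makes NADPH, rose to 1.59 times its control level, and Sod2 fell to 0.724 times. Nqo1, the quinone reductase that is a textbook NRF2 target, was at or under the detection floor in every library and was not tested. The test was edgeR's quasi-likelihood test with p-values adjusted by Benjamini-Hochberg over all 15733 genes tested, of which 0.953% passed an adjusted p of 0.05 (0.407% higher and 0.547% lower). For the 30 tested genes the share was 6.67%, which rests on 2 genes. Their median log2 fold change was 0.06, beside -0.01 for all genes tested, with 18 values above 0 and 12 below. At an unadjusted p of 0.05, 7 of the 30 were higher and 1 was lower, where 7.52% and 6.7% of all genes were (14.2% in either direction). In 19 of the 30 the CPM values of the groups did not overlap (12 higher and 7 lower), beside 47.6% of all genes tested (23.8% in each direction).

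The libraries held 61.0 to 75.7 M estimated counts, and low values gathered at multiples of 4, so 12 counts, or about 3 fragments, was taken as the floor (0.159 to 0.197 CPM, counts scaled to library total). Six2 itself had 0 counts in all 4 libraries, which allows up to that floor (for counting error only), so the knockdown could not be checked on its own target. Of 12 microglia and macrophage markers fixed as a list, 11 were tested and 3 fell (Aif1, Csf1r and Adgre1). Their summed level was 738 and 762 FPKM in control and 695 and 664 in knockdown libraries, while the homeostatic markers Cx3cr1 and P2ry12 were at most 0.108 FPKM on average in either group. Markers of neurons summed to 1.08 and 0.961 FPKM in control and 0.408 and 0 in knockdown libraries. Those of oligodendrocytes summed to 2.07 and 1.90 against 1.22 and 0.0444, those of astrocytes to at most 0.495 FPKM, of endothelial cells to at most 0.264 and of fibroblasts and mural cells to at most 0.146. None of the markers outside the microglial list passed, and the part of any marker in the results on redox genes was not tested. The labels name only BV-2 cells, so the low sums outside the microglial list are not read as shares of cell types. Their source was not tested. In bulk RNA, fewer cells of a type and less RNA per cell cannot be told apart.

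The promoters of the redox genes were searched for the core of the antioxidant response element, TGACNNNGC, and for the AP-1 core, TGANTCA, on either strand, since the element is the feature by which NRF2 targets are usually recognised. Of the 31 genes, 26 had an entry in RefSeq's promoter table (GRCm38.p6, 250 bases before to 50 after each start). Abcc1, Gclc, Gsr, Hmox1 and Prdx6 had none and were not searched. The element's core was found for 9 of these 26 genes (34.6%), beside 13.99% of 27025 genes in the whole table, and the AP-1 core for 5 (19.2%), beside 8.97%. Some genes had several promoters, and a gene counted if any of them held the core. Per promoter, the element's core was in 9 of 34 (26.5%), beside 12.4%, and the AP-1 core in 6 (17.6%), beside 7.81%. Me1, Mgst1 and Txnrd1 also had promoters without the element's core. Of 86 genes of a wider redox list, 16.3% held the element's core and 5.81% the AP-1 core. No test was run on these shares, and a match of this length is a description and not a binding site. Each match is shown here with 10 bases on either side, read 5′ to 3′ on the strand that carries it, with the core in capitals.
Me1: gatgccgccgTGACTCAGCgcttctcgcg
Prdx1: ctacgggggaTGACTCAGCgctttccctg
Nfe2l2: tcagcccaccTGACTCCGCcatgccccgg
Gclm: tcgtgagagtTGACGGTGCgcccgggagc
Mafg: ctcgccgggtTGACCGTGCtcctgcagag
Mgst1: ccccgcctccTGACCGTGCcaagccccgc
Sod1: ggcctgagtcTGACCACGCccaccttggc
Txnrd1: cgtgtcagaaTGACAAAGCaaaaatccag
Srxn1: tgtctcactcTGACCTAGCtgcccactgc
The Me1 and Prdx1 windows share the same core, TGACTCAGC, and in these alone it overlapped an AP-1 core. In Me1 it lay across the start site, from base -6 to base 3 (chr9:86695902-86695930 for the window), and in Prdx1 from base -133 to base -125 (chr4:116685456-116685484). Mafg and Mgst1 also share a core, TGACCGTGC, at chr11:120633751-120633779 and chr6:138140461-138140489. The other windows were at chr2:75704885-75704913 (Nfe2l2), chr3:122245413-122245441 (Gclm), chr16:90220696-90220724 (Sod1), chr10:82859104-82859132 (Txnrd1) and chr2:152105542-152105570 (Srxn1). The promoters of Sod2 and Gpx1 held neither core, and the same was so for other genes, among them Nqo1, Slc7a11 and Sqstm1. Bases outside these promoters were not searched, so a core lying farther from the start would be missed. Prdx1, with 8.29% of its 50-base stretches found in other genes, had a log2 fold change of -0.02 ± 0.07 (SE).

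Per gene length, Txn1 and Prdx1 had the highest levels of the 31 genes, and those tested lay above 33.4% (Slc7a11) to 99.0% (Txn1) of all genes tested. Txn1, the small protein that returns peroxiredoxins to their reduced state, had a mean of 353 FPKM over the 4 libraries. Prdx1, the main cytosolic peroxiredoxin, followed at 322 FPKM, and Gpx4, the peroxidase of lipid peroxides, at 167 FPKM. The ranges over libraries of Txn1 (339 to 371 FPKM) and Prdx1 (305 to 333) did not overlap, while those of Gpx4 (154 to 181) and Gpx1 (110 to 157) did. At the other end stood Osgin1 at 2.67 FPKM, the cystine importer gene Slc7a11 at 1.20 FPKM and Nqo1 at 0.0531 FPKM. Summed over the 31 genes, the level was 1983 and 2013 FPKM in control and 2007 and 2055 in knockdown libraries, ranges that overlapped.

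**Figure D1:**
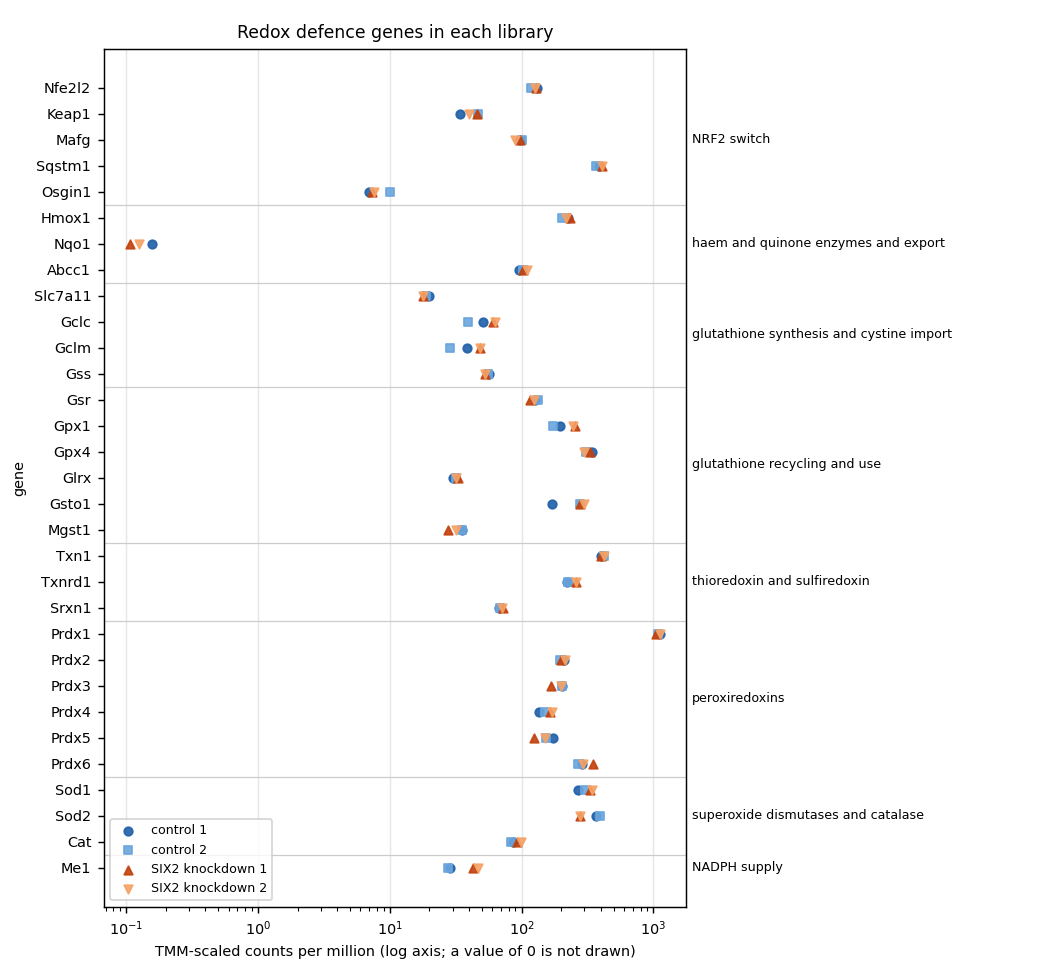
TMM-scaled CPM (horizontal log axis) of the 31 genes, grouped by role, with 1 symbol per library. Prdx1 sits farthest right, at 1045 to 1122 CPM, and Nqo1 farthest left, at 0.108 to 0.157 CPM in the 3 libraries where it had counts.

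The genes of the NRF2 switch did not pass. Nfe2l2 had 132 and 119 CPM in control and 128 and 126 CPM in knockdown libraries, so the control values enclosed the knockdown ones (log2 fold change 0.02 ± 0.08, SE). Keap1, its cytoplasmic sensor, had 34.4 and 46.6 against 45.8 and 40.0 CPM, with a larger gap inside the control group than between the groups. Mafg, a small MAF partner of NRF2, had 96.6 and 101 against 97.0 and 89.6 CPM, which overlapped. Sqstm1, the p62 autophagy receptor that draws KEAP1 away from NRF2, had 385 and 367 against 406 and 410 CPM. Its groups did not overlap, yet the log2 fold change was only 0.12 ± 0.07 (SE). Osgin1, an oxidative stress response gene, had 6.91 and 10.01 against 7.33 and 7.64 CPM, its highest and lowest values both in control libraries.

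Among classical NRF2 outputs, haem oxygenase was abundant and the quinone reductase was not. Hmox1, which breaks down haem, had 227 and 204 CPM in control and 231 and 217 CPM in knockdown libraries, above 96.9% of tested genes on the FPKM scale. The groups overlapped (log2 fold change 0.06 ± 0.08, SE). Nqo1 (chromosome 8, 107388225 to 107403206, minus strand, GRCm38) was at 12 counts in control replicate 1, at 0 in control replicate 2 and at 8 in each knockdown library, all at or under the floor of 12 counts. No fold was therefore given. Abcc1, the export pump for glutathione conjugates, had 96.0 and 102 against 102 and 110 CPM, groups that just failed to overlap, and did not pass.

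In glutathione synthesis the 2 subunits of the rate-limiting ligase had higher values in the knockdown libraries, while cystine import and the second enzyme had lower ones, and none of the 4 genes passed. Gclc, the catalytic subunit of glutamate-cysteine ligase, had 50.7 and 39.4 CPM in control and 61.1 and 62.6 CPM in knockdown libraries. Gclm, its modifier subunit, had 38.8 and 28.7 against 48.1 and 48.2 CPM. Both knockdown libraries lay above both controls for each subunit, and the control libraries lay farther apart than the knockdown libraries. The log2 fold changes were 0.46 ± 0.13 for Gclc and 0.51 ± 0.15 for Gclm (SE), with adjusted p = 0.192 and 0.212 by edgeR. Without control replicate 1 they were 0.65 and 0.75, and without control replicate 2 they were 0.29 and 0.31. Their ratio moved little: Gclc to Gclm was 2.18 and 2.29 in control and 2.12 and 2.17 in knockdown libraries on the FPKM scale. Slc7a11, the cystine-glutamate exchanger that supplies cysteine, had 19.98 and 18.8 against 17.97 and 17.8 CPM. Gss, which joins glycine in the final step, had 57.2 and 55.6 against 52.6 and 53.0 CPM.

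Glutathione peroxidase 1 came nearest to the threshold among the genes that did not pass. Gpx1 (chromosome 9, 108338903 to 108340343, plus strand, GRCm38), a selenoprotein that reduces hydrogen peroxide with glutathione, had 197 and 173 CPM in control and 254 and 245 CPM in knockdown libraries. All knockdown values lay above all control values, with a log2 fold change of 0.43 ± 0.08 (SE, adjusted p = 0.0928 by edgeR). It passed with DESeq2 (adjusted p = 0.00165, where 5.22% of genes passed) and with no filter on low counts (adjusted p = 0.0405, where 1.3% passed), and its adjusted p ran from 0.00165 to 0.328 over 16 other fits. Gpx4 had 345 and 309 against 332 and 299 CPM, groups that overlapped. The ratio of Gpx1 to Gpx4 was 0.685 and 0.670 in control and 0.916 and 0.979 in knockdown libraries (FPKM). Of Gpx4's 50-base stretches 34.7% also occur in the pseudogene Gpx4-ps2, which had 14746 counts over the 4 libraries, so its level is uncertain. Gsr, which recycles oxidised glutathione, had 127 and 133 against 116 and 125 CPM and did not pass.

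Of the other glutathione enzymes, Gsto1 varied most between libraries of a group. Gsto1, an omega-class transferase, had 170 CPM in control replicate 1, and 279, 278 and 296 CPM in control replicate 2 and the knockdown libraries. Its fitted log2 fold change of 0.35 ± 0.29 (SE, adjusted p = 0.696 by edgeR) rested on the single low control library: it was 0.04 without control replicate 1 and 0.76 without control replicate 2. Mgst1, the microsomal transferase that guards membranes against lipid peroxides, had 35.3 and 35.1 against 27.7 and 32.0 CPM (adjusted p = 0.421). Glrx, which removes glutathione from protein thiols, had 30.95 ± 1.14 and 32.2 ± 0.952 CPM (SD, n = 2 each), and neither Mgst1 nor Glrx passed.

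The thioredoxin system had a reductase with tight values and a small difference. Txnrd1, the selenoenzyme that reduces thioredoxin with NADPH, had 221 and 225 CPM in control and 260 and 260 CPM in knockdown libraries. The gap between the groups was wider than the gap inside either, yet the log2 fold change was 0.22 ± 0.07 (SE) and did not pass by edgeR (adjusted p = 0.211). Txn1 had 413 ± 18.3 and 412 ± 16.4 CPM (SD, n = 2 each). The Txn1 to Txnrd1 ratio was 12.2 and 12.8 in control and 10.4 and 10.98 in knockdown libraries (FPKM). Srxn1, which rescues over-oxidised peroxiredoxins, had 67.2 and 69.0 against 72.3 and 71.3 CPM and did not pass.

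The 6 peroxiredoxins went different ways and none passed. Prdx1 made up 46.8% to 47.3% of the family's summed FPKM in every library. Prdx4, the peroxiredoxin of the endoplasmic reticulum, had 136 and 151 CPM in control and 165 and 172 CPM in knockdown libraries (log2 fold change 0.23 ± 0.08, SE, adjusted p = 0.278 by edgeR). Prdx6, which also repairs phospholipids, had 285 and 271 against 351 and 294 CPM, with the wider gap between the knockdown libraries. The mitochondrial Prdx3 had 201 and 203 against 166 and 198 CPM, and Prdx5, found in mitochondria, peroxisomes and cytosol, had 173 and 154 against 124 and 152 CPM. For both of these, knockdown replicate 1 was the low library and knockdown replicate 2 lay close to the controls. Prdx2, the second cytosolic form, had 202 ± 10.6 and 207 ± 10.9 CPM (SD, n = 2 each). As a family the summed level was 704 and 691 against 650 and 697 FPKM, which overlapped.

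Sod2 fell, and neither Sod1 nor catalase passed. Sod2 (chromosome 17, 13006846 to 13037398, plus strand, GRCm38) had 370 and 397 CPM in control and 279 and 276 CPM in knockdown libraries. Both knockdown values lay below both controls, with a log2 fold change of -0.47 ± 0.07 (SE, adjusted p = 0.0428 by edgeR). Sod1, the copper-zinc dismutase of the cytosol, had 268 and 302 against 329 and 342 CPM, all knockdown values above the controls (log2 fold change 0.24 ± 0.08, SE, adjusted p = 0.260). The Sod1 to Sod2 ratio, in which library scaling cancels, was 1.82 and 1.92 in control and 2.97 and 3.12 in knockdown libraries (FPKM). Sod2 made up 35.4% and 34.3% of the summed Sod1 and Sod2 FPKM in control and 25.2% and 24.3% in knockdown libraries. With 2 libraries against 2, an exact two-sided permutation test cannot go below p = 0.333, the value this ratio had. Cat, the peroxisomal catalase, had 86.2 and 83.2 against 92.5 and 98.5 CPM and did not pass, and the 3 genes together had 130 ± 7.40 and 132 ± 2.99 FPKM (SD, n = 2 each).

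**Figure D2:**
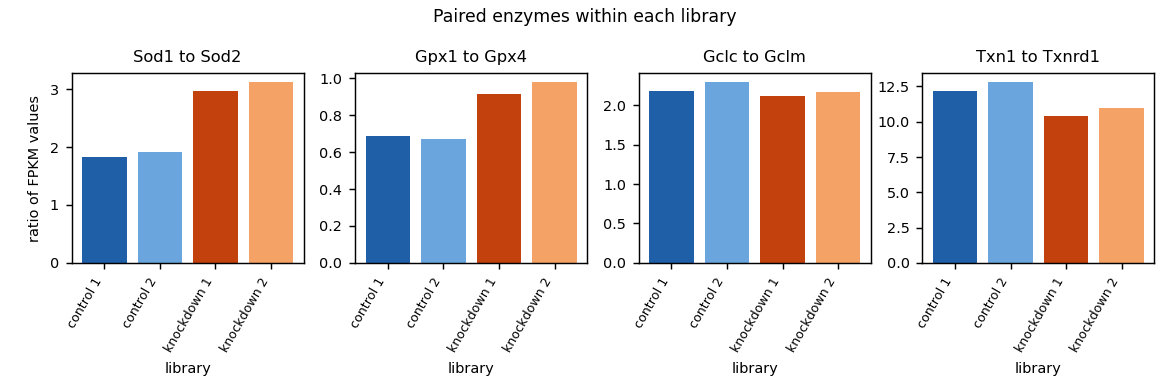
Ratio of FPKM values of 2 related genes within each library, 1 bar per library. Sod1 to Sod2 stood at 1.82 and 1.92 in control and 2.97 and 3.12 in knockdown libraries, while Gclc to Gclm stayed between 2.12 and 2.29. These ratios were picked after the values were seen.

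Me1 was the gene that rose. Me1 (chromosome 9, 86581371 to 86695953, minus strand, GRCm38) had 28.8 and 27.5 CPM in control and 42.7 and 46.7 CPM in knockdown libraries. Every knockdown value lay above every control value, and the log2 fold change was 0.67 ± 0.10 (SE, adjusted p = 0.0475 by edgeR). At 8.48 FPKM over the 4 libraries it was a minor mRNA beside the NADPH-making enzymes of the pentose phosphate pathway, with G6pdx at 106 FPKM and Pgd at 97.6 FPKM. Neither of those passed (log2 fold changes 0.00 and 0.06). Of Me1's 50-base stretches 22.9% also occur in other genes, chiefly the pseudogene Gm7049, and those genes together had 0.879% of Me1's counts.

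**Figure D3:**
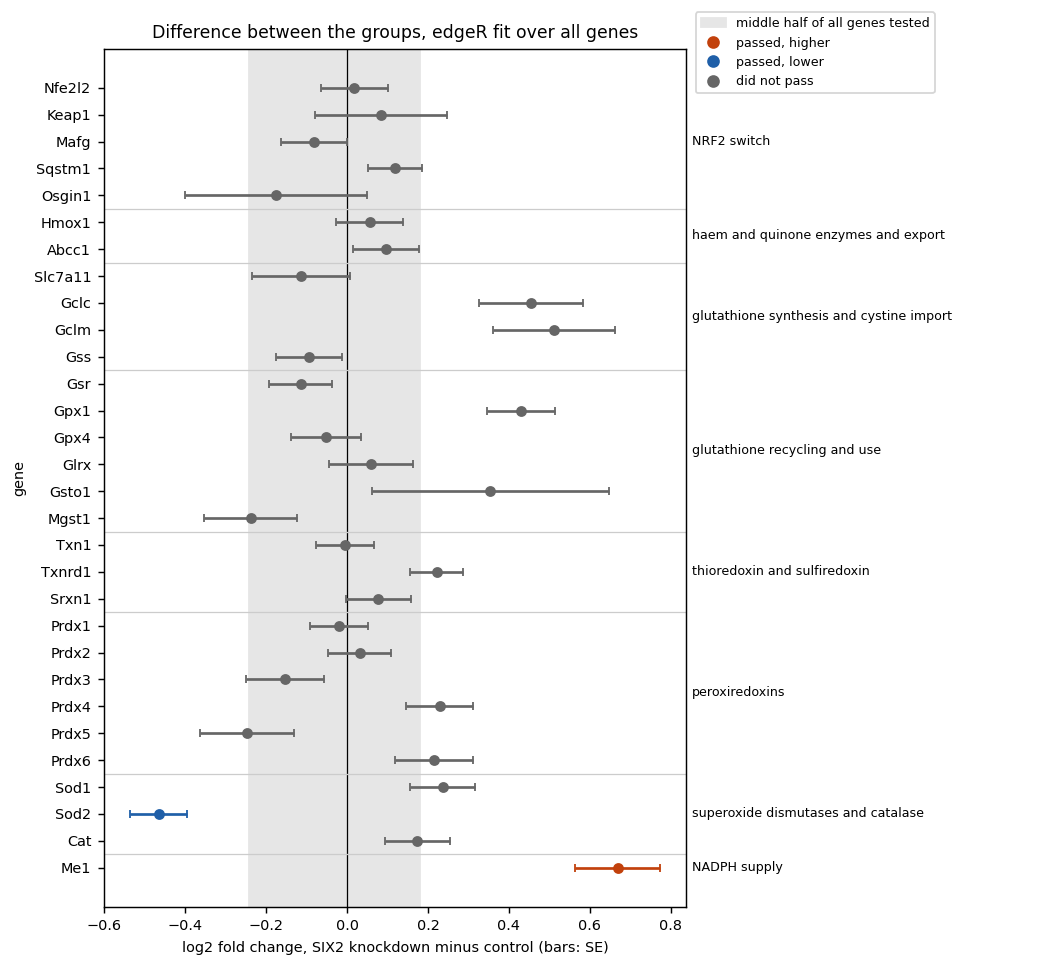
Log2 fold change, knockdown minus control, with its SE for the 30 genes tested, and the middle 50% of all genes tested as a grey band. Me1 (0.67) and Sod2 (-0.47) carry the colours of genes that passed, and Gclc, Gclm and Gpx1 lie between 0.43 and 0.51 without passing.

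The calls for Me1 and Sod2 were close to the threshold. Me1 passed in 6 and Sod2 in 7 of 16 other fits, with the same direction in each of the 16, and adjusted p-values ran from 1.4e-05 to 0.245 and from 2.71e-07 to 0.230. Neither passed with any 1 library left out. Adjusted p-values were then 0.0968 to 0.245 for Me1 (log2 fold change 0.61 to 0.73) and 0.0998 to 0.230 for Sod2 (-0.52 to -0.41). With limma-voom the adjusted p was 0.0741 for Me1 and 0.0664 for Sod2, without edgeR's robust option it was 0.102 for both, and with library totals alone Me1 had 0.0558. The share of all genes that passed was 0.922% with RLE size factors, 0.877% with library totals alone, 1.25% with at least 1 CPM in 2 libraries, 1.03% with edgeR's newer quasi-likelihood method and 1.28% with counts divided by 4. It was 0.413% with limma-voom, 0.0445% without the robust option, 0.0191% with limma-trend on log2 FPKM for both pseudocounts, and 0 with a replicate block. With 1 library left out it was 0.373% (control replicate 1), 0.244% (control replicate 2), 0.664% (knockdown replicate 1) and 0.249% (knockdown replicate 2). Sod2 shares 21.04% of its 50-base stretches with other genes, among them Rps6ka2 (15.97%, with 3545 counts over the 4 libraries). The 202 genes that share any stretch with it held 3214% of its own counts, most of them with a small share each, and its deposited end differs from that of GENCODE M21 (13040063), so part of its count depends on how shared reads were assigned.

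**Figure D4:**
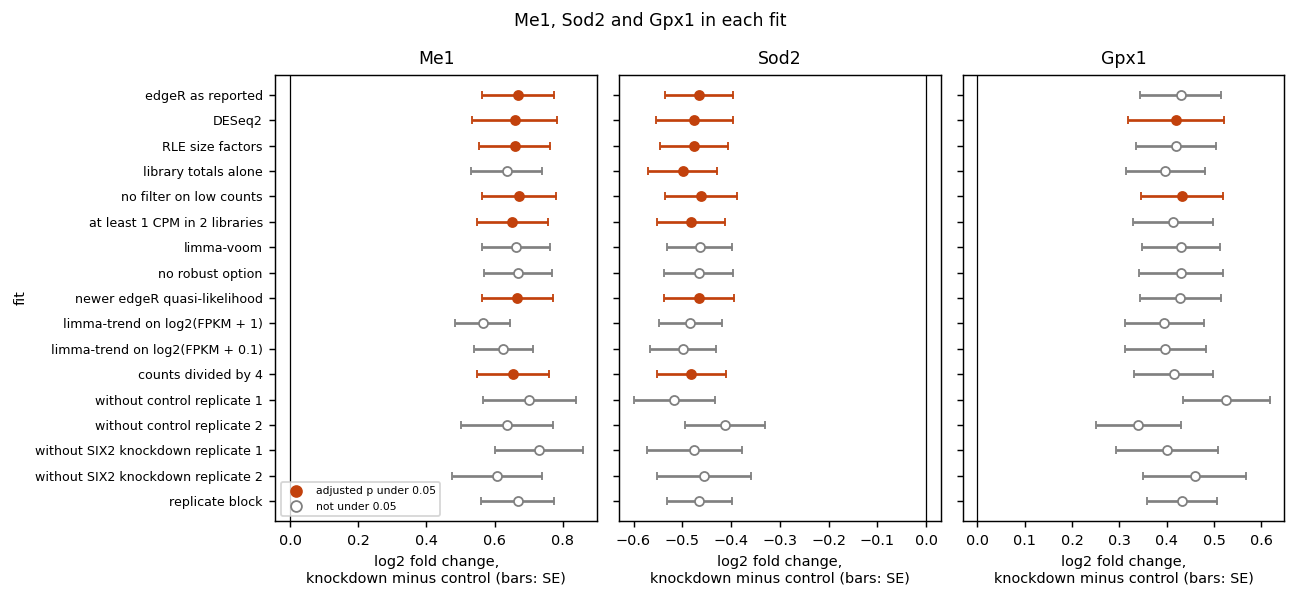
Log2 fold change with SE of Me1, Sod2 and Gpx1 in each fit, filled where the adjusted p was under 0.05. Me1 stays between 0.56 and 0.73, Sod2 between -0.52 and -0.41 and Gpx1 between 0.34 and 0.53, while the filling changes from fit to fit.

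Several of the genes share sequence or position with others, which the strand-marking kit would help to separate only if counting used the strand, a point that the labels do not give. On the opposite strand, exons of Keap1, Gss, Prdx2, Prdx5, Sqstm1, Gclm and Me1 overlap those of another gene model (for Prdx2, Junb and Rnaseh2a). On the same strand, Mafg overlaps Sirt7 and Gclm overlaps the pseudogene Gm6061, which had 73 counts over the 4 libraries. Gclm also shares 3.24% of its 50-base stretches with Ppia (515835 counts) and 3.07% with the pseudogene Gm10123 (103154 counts), both far more abundant than Gclm. How the counting split such reads is not given, so the values of these genes are uncertain.

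A wider list of 106 redox genes, put together by role, also with earlier results known, had 100 members in the FPKM table and 85 that were tested, and 0 passed by edgeR. At an unadjusted p of 0.05, 7 were higher and 6 lower (15.3% in either direction), close to the 14.2% of all genes. Their median log2 fold change was -0.0019, with 42 values above 0 and 43 below, beside -0.01 for all genes. With DESeq2, 4 passed, where 5.22% of all genes did. They were Hpgds and Esd, higher, and Gsk3b and Taldo1, lower (adjusted p = 0.0178, 0.0485, 0.00387 and 0.0490). Gsk3b, a kinase that marks NRF2 for destruction by a route apart from KEAP1, had 73.0 and 71.0 CPM in control and 49.9 and 56.4 CPM in knockdown libraries (adjusted p = 0.107 by edgeR and 0.00387 by DESeq2). Hpgds, a prostaglandin D synthase of the glutathione transferase family, had 45.7 and 41.4 against 55.9 and 65.5 CPM (adjusted p = 0.129).

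The most abundant genes of each role in the wider list, chosen by their FPKM, did not pass by edgeR. Park7 (DJ-1, a redox-sensitive protein that stabilises NRF2) had 270 ± 0.851 and 258 ± 1.30 CPM, and Rbx1, part of the ligase that KEAP1 serves, 160 ± 1.14 and 155 ± 3.82 CPM (SD, n = 2 each). Slc3a2, the heavy chain that carries Slc7a11 to the membrane, had 257 ± 7.59 and 226 ± 6.60 CPM, and Esd, which hydrolyses S-formylglutathione, 187 ± 9.64 and 259 ± 54.0 CPM. Of the transferases, 14 were tested, led by Gstp1 (301 ± 36.5 and 278 ± 39.0 CPM) and Gstm1 (102 ± 4.01 and 102 ± 8.36 CPM). Txndc17, a thioredoxin-like protein, had 138 ± 7.89 and 141 ± 6.05 CPM, and Msrb1, which repairs oxidised methionine, 99.1 ± 2.91 and 101 ± 3.70 CPM. Among genes listed under NADPH supply, not all of which make NADPH themselves, Taldo1 had 403 ± 7.81 and 350 ± 7.22 CPM. G6pdx had 364 ± 6.18 and 365 ± 7.34 CPM, and of the 13 tested genes of this group 0 passed. The ferritin chains Ftl1 (6073 ± 504 and 6291 ± 295 CPM) and Fth1 (6523 ± 1870 and 5844 ± 1755 CPM) were the most abundant of all the genes listed. Ccs, the chaperone that loads copper into Sod1, had 31.4 ± 0.561 and 25.9 ± 0.850 CPM (adjusted p = 0.308).

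**Figure D5:**
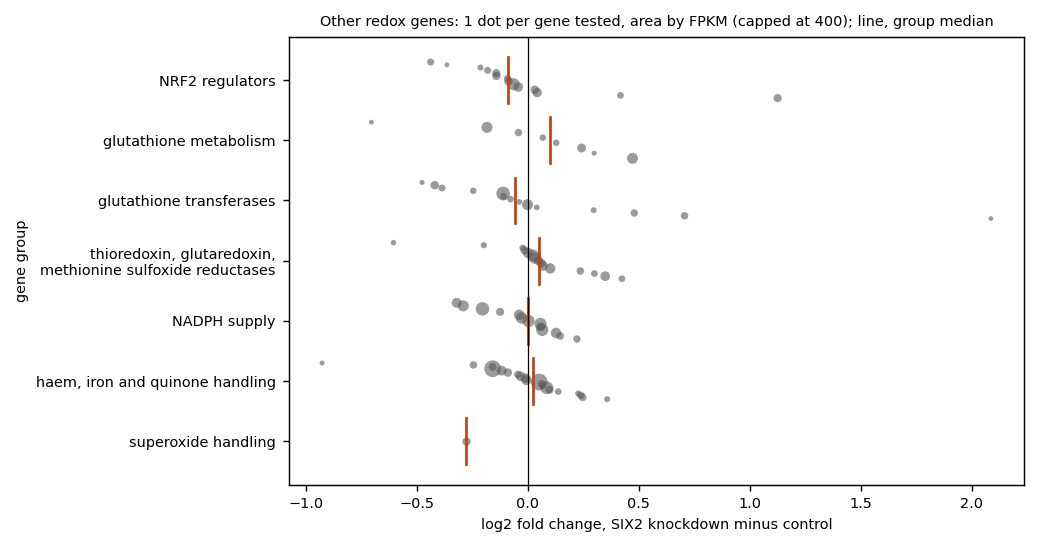
Log2 fold change, knockdown minus control, of the 85 tested genes of the wider list, 1 dot per gene with its area by mean FPKM (capped at 400) and a line at each group's median. Group medians lie between -0.09 and 0.10 except for superoxide handling, whose single tested gene is Ccs at -0.28. The dot farthest to the right is Gsta3, whose counts were 0 and 12 in control and 0 and 52 in knockdown libraries.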

How the data were processed

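RNA was captured with oligo-dT beads and made into dUTP-marked libraries, per the labels' protocols. The authors deposited estimated counts, whole numbers per Ensembl gene with no scaling, and FPKM values, which the authors had divided by gene length and library depth, per the file headers. Bowtie 0.12.2 and build mm8 are named per the submitters' processing notes. In the sources used here, neither the counting program nor its use of the strand is given. Coordinates in the deposited files are those of GENCODE M21 (GRCm38) for 89.6% of 24422 genes, and that build was used. Another 12 columns matched no labelled sample and were not used. Counts were rounded (which changed none) and passed to edgeR 4.0.16 (R 4.3.3) for filterByExpr, TMM scaling and a robust quasi-likelihood fit without covariates, two-sided, Benjamini-Hochberg adjusted p under 0.05. SE is the log2 fold change over the root of F. The script was tested on simulated data. Alternatives used DESeq2 1.42.0, limma 3.58.1 (voom, and trend on log2(FPKM + 1) or with 0.1 added), other scaling, filters and thresholds, counts divided by 4, each library left out, and a replicate block. Library depth was 61.0 to 75.7 M counts, or 15.2 to 18.9 M fragments if each fragment gave 4 counts. Shared sequence was the share of a gene's GENCODE M21 50-base stretches found in transcripts of other genes. All 31 genes are described; of the wider list, the 2 with the highest FPKM per group, and others (Hpgds, Gsk3b, Nfe2l1, Cbr1, Pgd and Gsta3) after their values were seen. The members and lists were chosen with earlier results of these data known.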

Additional observations from a re-analysis of the deposited data

How the results depend on the processing

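Of the 30 genes tested, 22 kept the sign of their fold change in all 16 other fits. The 8 that did not (Nfe2l2, Keap1, Osgin1, Hmox1, Gpx4, Txn1, Prdx1 and Prdx2) passed in none of them. Of all genes, 150 passed as reported, against 806 by DESeq2, 65 by limma-voom, 297 when low counts were kept, 7 without the robust option, 3 with limma-trend on log2(FPKM + 1), 3 with 0.1 added, 7 at an adjusted p under 0.01, and 41 to 112 with 1 library left out. Of the redox genes, 2 passed as reported, 3 by DESeq2, 3 when low counts were kept and 1 with library totals alone. The number was 0 with limma-voom, 0 without the robust option, 0 with log2(FPKM + 1) and 0 with 0.1 added, 0 at an adjusted p under 0.01, and 0 to 0 with 1 library left out. Of the wider list, 4 passed with DESeq2 and 0 to 1 with 1 library left out. The cause of these differences was not tested.

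The replicate numbers in the titles were tried as a replicate block. With it, 0 of all genes and 0 of the redox genes passed (2055 and 9 at an unadjusted p of 0.05). Deviations of same-numbered libraries from their group means had a correlation of 0.0486 over genes, and no label ties them, so they were not treated as pairs. Single genes such as Fth1 and Cbr1 did follow the number in both groups.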

Other observations

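Nfe2l1, which encodes NRF1, a relative of NRF2 that drives proteasome genes, had 46.4 and 54.3 CPM in control and 166 and 53.9 CPM in knockdown libraries. The high value stood in knockdown replicate 1 alone. Its log2 fold change was 1.12 ± 0.74 (SE, adjusted p = 0.642 by edgeR) and rested on that library. It was 0.09 without knockdown replicate 1 (adjusted p = 0.823) and 1.72 without knockdown replicate 2 (adjusted p = 0.0238), fits in which the lone knockdown library was assumed to vary like the controls. Without control replicate 1 or 2 the adjusted p was 0.844 or 0.871.

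The ferritin heavy chain gene Fth1 had 5201 and 7845 CPM in control and 4603 and 7086 CPM in knockdown libraries, so replicate 2 was the higher library in both groups. The carbonyl reductase gene Cbr1 had the same order, with 23.9 and 40.7 against 26.5 and 42.6 CPM. For both genes the gap inside a group was wider than the difference between the group means.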
